A study of Mus musculus with 14 samples.

Results

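Interleukins and their receptors outside the IL-1 family were described by the H3K9cr and H3K9ac peaks at their genes in mouse kidney. The members were all protein-coding autosomal genes of the RefSeq annotation of GRCm38.p6 (mm10) whose symbol is Il followed by a digit, without Il33 and without symbols starting with Il18 or with Il1 and a letter. Membership depended on the symbol alone, but the list was set with earlier results of these data known. This gave 60 genes of 20665 protein-coding autosomal genes, made up of 29 ligands, 29 receptor chains and 2 genes for an interleukin-4-induced amino acid oxidase (Il4i1 and Il4i1b). The X-linked genes Il2rg, Il13ra1 and Il13ra2 match by name and were left out.

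Chromatin was immunoprecipitated from whole kidneys of C57BL/6J mice 6 to 8 weeks old, which were wild type (WT) or carried a whole-body CRISPR/Cas9 deletion of ACSS2, a crotonyl-CoA-producing enzyme (ACSS2-/-). Kidneys were either controls, labelled C, or obstructed by unilateral ureteric obstruction (UUO), in which the left ureter is tied and cut. The methods describe a sham operation for controls, and the day of harvest is not given in the sources used here for these libraries. H3K9cr, crotonylation of lysine 9 of histone H3, had 2 libraries in each of the 4 groups, WT control, WT UUO, ACSS2-/- control and ACSS2-/- UUO. H3K9ac, acetylation of the same residue, had 2 libraries per genotype after UUO and 1 per genotype in control, which made 14 libraries in all. The labels do not say that the libraries of a group came from separate mice, so that the spread between them may be technical.

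Interleukins are secreted messengers between immune cells and between immune and tissue cells. Most of those described here bind receptors without enzyme activity of their own that pass the signal through JAK kinases to STAT factors, and receptors are built from shared chains (the common gamma chain, the common beta chain, gp130) with a chain specific to the ligand. IL-17 receptors use the adaptor Act1 instead. Both acylations of H3K9 are known from start sites of active genes.

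A member was counted as carrying a mark in a library when at least 1 bp of a peak lay between 3 kb before and 3 kb after the gene. The graded value was the covered length, the number of bases of this window inside peaks. The deposited peak lists give positions only, with no height, score or read depth, so that the number of peaks was the only sign of a library's yield. It ranged from 27530 to 45014 for H3K9cr and from 15988 to 32760 for H3K9ac. Peaks on chromosome Y were present in 5 of 8 H3K9cr libraries and 3 of 6 H3K9ac libraries, and in H3K9cr UUO of both genotypes replicate 1 had them and replicate 2 did not. In 4 UUO libraries the mouse number in the peak names differed from the replicate number of the label. Acss2 itself carried peaks in every library, with 760 to 5852 bp covered in ACSS2-/- and 869 to 2896 bp in WT, so that these marks do not check the deletion. Genes of the proximal tubule fixed as markers (6 genes, Lrp2 and Slc34a1 among them) were covered over 19.7 to 39.2 kb in H3K9cr control libraries and 3.48 to 8.14 kb in UUO.

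Promoter sequences show how differently the members start. They were taken from the RefSeq promoter table of GRCm38.p6, which held 44 of the 60 members, and run from 250 bases before to 50 bases after the start site, in the direction of the gene. Cytosine followed by guanine (CpG) is in capitals. Il21r (chr7:125603179-125603478, plus strand) and Il4i1 (chr7:44836038-44836337, plus strand) are shown because H3K9cr was at these genes in every UUO and no control library. Il4ra (chr7:125552021-125552320, plus strand) and Il6st (chr13:112463820-112464119, plus strand) are shown because a peak of both marks reached their promoter in all 14 libraries. Il2ra (chr2:11642542-11642841, plus strand), Il17a (chr1:20730655-20730954, plus strand) and Il2 (chr3:37125905-37126204, minus strand) were chosen after their values were seen, Il2ra for its shorter coverage in UUO and the other two because neither mark was at the gene in any library.
Il21r: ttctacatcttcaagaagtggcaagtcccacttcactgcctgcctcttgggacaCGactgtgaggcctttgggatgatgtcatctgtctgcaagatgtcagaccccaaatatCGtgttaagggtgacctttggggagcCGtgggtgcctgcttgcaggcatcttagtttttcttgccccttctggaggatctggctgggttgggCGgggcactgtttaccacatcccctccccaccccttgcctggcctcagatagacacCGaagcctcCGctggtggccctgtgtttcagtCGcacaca
Il4i1: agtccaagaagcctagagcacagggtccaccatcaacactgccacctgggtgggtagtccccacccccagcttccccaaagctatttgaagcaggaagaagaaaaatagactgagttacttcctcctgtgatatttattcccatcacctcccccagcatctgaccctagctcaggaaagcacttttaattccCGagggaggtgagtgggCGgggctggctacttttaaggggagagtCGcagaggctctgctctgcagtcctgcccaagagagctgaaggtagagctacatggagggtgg
Il4ra: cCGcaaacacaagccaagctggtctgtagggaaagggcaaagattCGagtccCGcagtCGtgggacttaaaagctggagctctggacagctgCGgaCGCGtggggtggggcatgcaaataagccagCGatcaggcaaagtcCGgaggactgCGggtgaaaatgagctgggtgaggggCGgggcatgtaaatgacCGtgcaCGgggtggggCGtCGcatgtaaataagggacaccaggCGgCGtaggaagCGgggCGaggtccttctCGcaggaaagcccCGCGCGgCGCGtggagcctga
Il6st: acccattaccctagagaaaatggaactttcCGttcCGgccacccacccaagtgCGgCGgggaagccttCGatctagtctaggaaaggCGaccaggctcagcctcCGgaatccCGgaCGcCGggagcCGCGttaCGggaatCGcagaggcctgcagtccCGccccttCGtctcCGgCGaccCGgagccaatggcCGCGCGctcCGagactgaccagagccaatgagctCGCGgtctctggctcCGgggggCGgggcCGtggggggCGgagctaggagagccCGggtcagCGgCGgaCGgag
Il2ra: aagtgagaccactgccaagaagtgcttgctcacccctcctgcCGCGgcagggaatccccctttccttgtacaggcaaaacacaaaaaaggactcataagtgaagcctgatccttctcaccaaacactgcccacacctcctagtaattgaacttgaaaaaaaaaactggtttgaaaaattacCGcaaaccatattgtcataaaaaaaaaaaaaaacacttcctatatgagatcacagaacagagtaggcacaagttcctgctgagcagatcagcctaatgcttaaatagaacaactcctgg
Il17a: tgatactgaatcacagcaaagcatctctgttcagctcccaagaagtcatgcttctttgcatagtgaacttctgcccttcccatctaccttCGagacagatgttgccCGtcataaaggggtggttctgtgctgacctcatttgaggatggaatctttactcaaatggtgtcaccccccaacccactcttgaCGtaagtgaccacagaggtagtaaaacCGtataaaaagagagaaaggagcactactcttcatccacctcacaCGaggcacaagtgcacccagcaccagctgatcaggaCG
Il2: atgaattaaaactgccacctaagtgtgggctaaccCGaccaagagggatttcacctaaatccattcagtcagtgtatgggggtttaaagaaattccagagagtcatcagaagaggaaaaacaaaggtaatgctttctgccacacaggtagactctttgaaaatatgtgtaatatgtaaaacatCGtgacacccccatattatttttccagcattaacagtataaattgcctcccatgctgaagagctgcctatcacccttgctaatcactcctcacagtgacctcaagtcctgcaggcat

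Promoters of members with both marks in all libraries held 3 to 34 CpG dinucleotides in 300 bases, with a median of 19 over 11 promoters. Promoters of members without a peak held 1 to 13, with a median of 4 over 15, and those of variable members 1 to 19, with a median of 4 over 16. Over 16457 coding promoters the median was 14. Where a gene had several promoters in the table (Il4, Il11, Il11ra1, Il12a, Il15ra and Il16 among the members), the first listed was used for these counts and for motifs. Il6st had 33 and Il4ra 25, and Il2 had 2, Il4i1 3, Il2ra 3, Il17a 6 and Il21r 7. The 2 promoters of members with H3K9cr in all libraries and H3K9ac in some or none, those of Il2ra and Il3ra, held 3 and 35. The ranges of the classes overlapped.

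**Figure D1:**
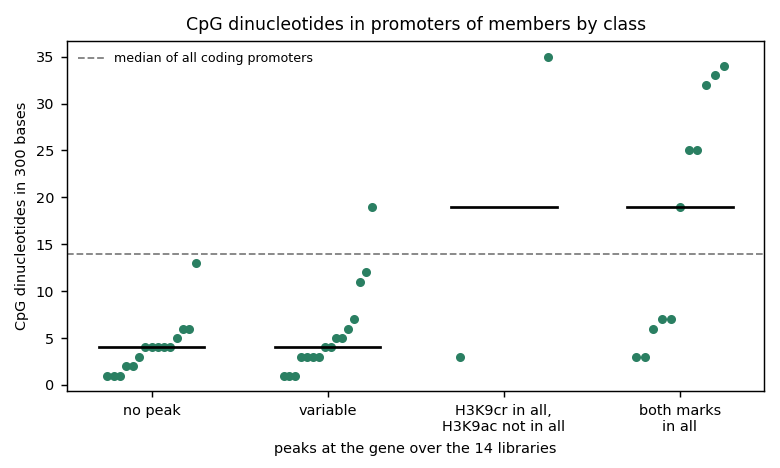
Number of CpG dinucleotides in the 300-base promoter (vertical axis) of each member with a promoter in the table (points), grouped by its peaks over the 14 libraries, with the class median (bar) and the median of all coding promoters (dashed line, 14). No promoter without a peak passed 13, and the class with both marks in all libraries ran from 3 to 34.

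Letters read by factors known in cytokine signalling were searched on both strands of the promoters. TTCNNNGAA (STAT) was found in 6 of 44 member promoters against 7.93% of all coding promoters, and CCGGAA (ETS) in 5 of 44 against 19.5%. TGANTCA (AP-1) was found in 8 of 44 against 7.17%, and TATAAA, the core of the TATA box, in 6 of 44 against 13.5%. A looser motif of NF-kB (3 guanines, 5 bases of any kind and 2 cytosines) was in 29 of 44 members and 57.4% of all promoters, and overlaps between motifs were left in. Of the 7 promoters shown, Il17a and Il2 had the TATA box letters starting 31 bases before the start site, Il17a also had those of AP-1, and Il6st had those of ETS at 2 places. Il21r and Il4i1 held only the NF-kB motif, which all 7 held. A match is a description of the letters and not a bound site.

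The members fell into a group marked throughout, a group never marked and a group in between. Both marks were present in every library at 17 members, 28.3% of the 60 against 53.9% of all coding genes. Neither mark was present in any library at 18 members, 30% against 24.9% of all coding genes. The other members were 3 with H3K9cr in all 8 libraries and H3K9ac in some or none (Il3ra, Il2ra and Il12rb1) and 22 with H3K9cr in some or no libraries, of which Il25 and Il17c had a peak of H3K9ac alone, in 1 library. Of 29 receptor chains, 12 carried both marks throughout and 4 were never marked, and of 29 ligands 4 carried both marks throughout and 14 were never marked. The median gene length was 27204 bp for receptors and 5464 bp for ligands, so that the windows scored were longer for receptors, and the difference was not tested.

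Among receptors, all 5 IL-17 receptor chains (Il17ra, Il17rb, Il17rc, Il17rd and Il17re) carried both marks in every library. The same held for 4 chains of the gp130 group, Il6st, which encodes gp130 itself, Il6ra, Il11ra1 and Il27ra. It also held for Il4ra and Il15ra of the common gamma chain group and for Il10rb, a chain that the receptors for IL-10 and IL-22 share. The ligands marked throughout were Il7 and Il15, growth factors of lymphocytes, Il34, a ligand of the macrophage receptor CSF1R, and Il16. The oxidase gene Il4i1b completed the 17, and its window held the start sites of Atf5, Nup62 and Il4i1.

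Covered length as a share of the window allows levels to be set side by side between genes. The highest medians over the 8 H3K9cr libraries were 28.2% of the window for Il11ra1, 25.3% for Il17rc, 19.8% for Il17rb, 19.0% for Il17re, 17.7% for Il4ra and 16.8% for Il34. Their ranges over libraries overlapped, for example 19.1% to 33.6% for Il11ra1 and 21.3% to 40.0% for Il17rc, so that their order is not separated beyond the spread. Il6st, with peaks at its promoter in all libraries, had 3.2% to 6.0% of a longer window covered. The windows of Il17re and Il17rc overlap, that of Il11ra1 holds the start site of Ccl27a and that of Il17rb the start site of Chdh, and a peak there counts for each gene.

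The 18 members never marked were mostly cytokines of activated T cells and barrier immunity. They were Il2, Il4, Il13 and Il21, listed with the common gamma chain group (Il13 beside Il4, whose receptor chain it shares), Il3 and Il5 of the common beta chain group, Il31 of the gp130 group, and Il23a. Il19, Il20, Il22 and Il24 of the IL-10 group and the ligands Il17a and Il17f were also without a peak. The receptors were Il20ra, Il22ra2, which encodes a soluble IL-22 binding protein, Il11ra2 and Il23r. A list without a peak says only that none passed the authors' threshold, not that the mark is absent.

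**Figure D2:**
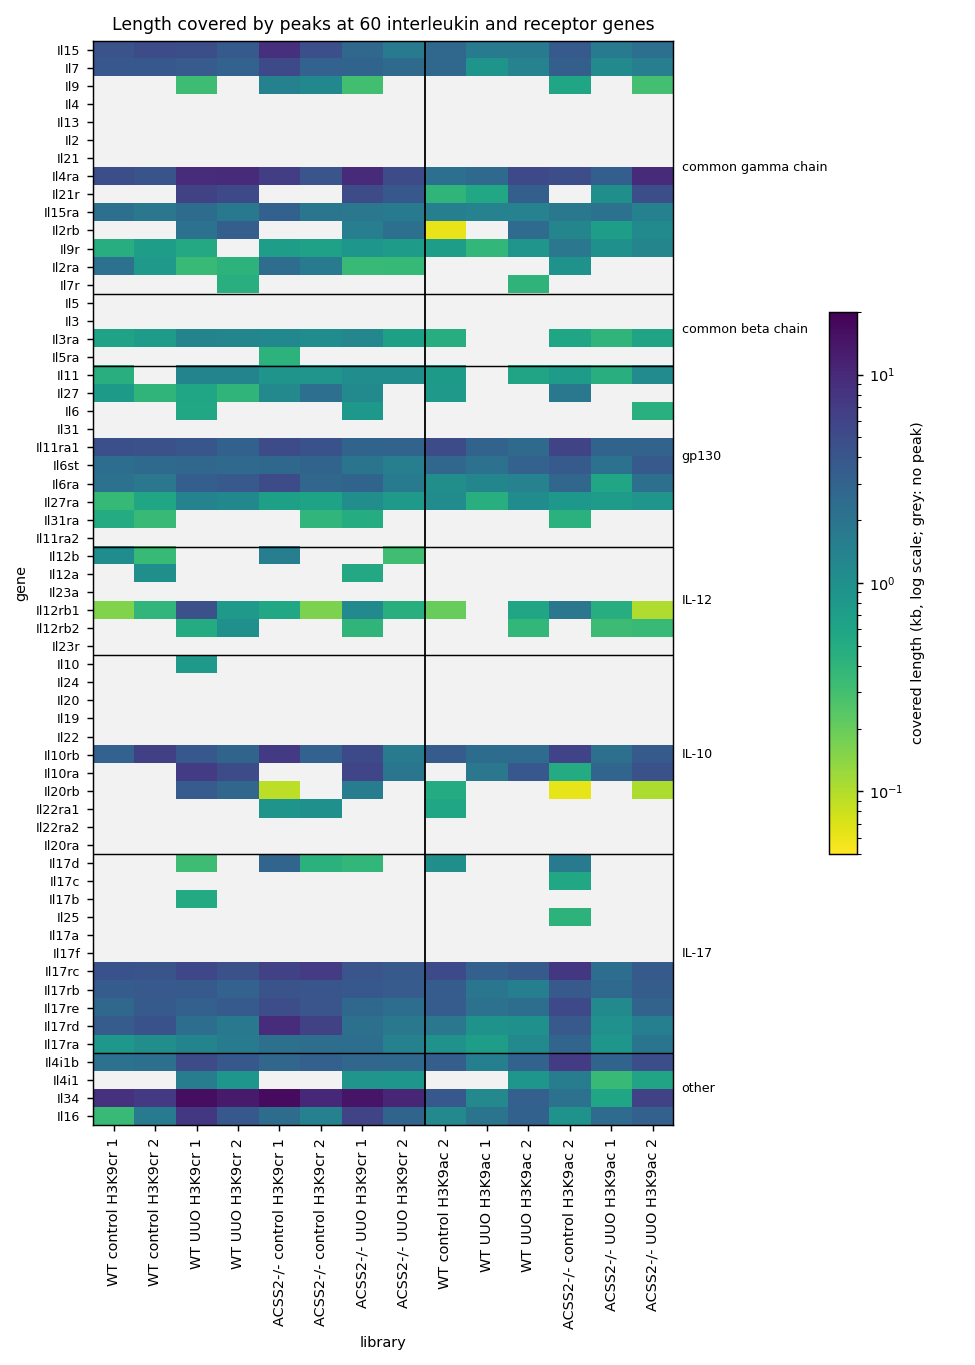
Length covered by peaks (colour, kb on a log scale, grey for no peak) at each of the 60 genes (rows, by family) in each of the 14 libraries (columns, H3K9cr left and H3K9ac right of the line). The IL-17 receptor chains are filled in all 14 columns, the ligands Il17a and Il17f in none, and Il10ra, Il21r, Il2rb and Il4i1 are filled in the UUO and empty in the control columns of H3K9cr.

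The first comparison, UUO against control, asked at which members the marks changed with kidney fibrosis. H3K9cr was at 25 and 25 members in WT control, 34 and 29 in WT UUO, 29 and 27 in ACSS2-/- control and 34 and 27 in ACSS2-/- UUO. The means were 25 ± 0 (SD, n = 2), 31.5 ± 3.54, 28 ± 1.41 and 30.5 ± 4.95. The share of all coding genes with H3K9cr was 64.5% to 68.1% in the same libraries, and that of members 41.7% to 56.7%. H3K9ac was at 27 members in WT control, 20 and 26 in WT UUO, 32 in ACSS2-/- control and 26 and 29 in ACSS2-/- UUO, with 58.1% to 67.4% of all coding genes. In WT both UUO libraries had more members with H3K9cr than either control, while in ACSS2-/- the second UUO library had as many as the lower control. All coding genes had the same order in WT, with 67.9% and 66.1% in UUO against 64.5% and 65.8% in control.

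**Figure D3:**
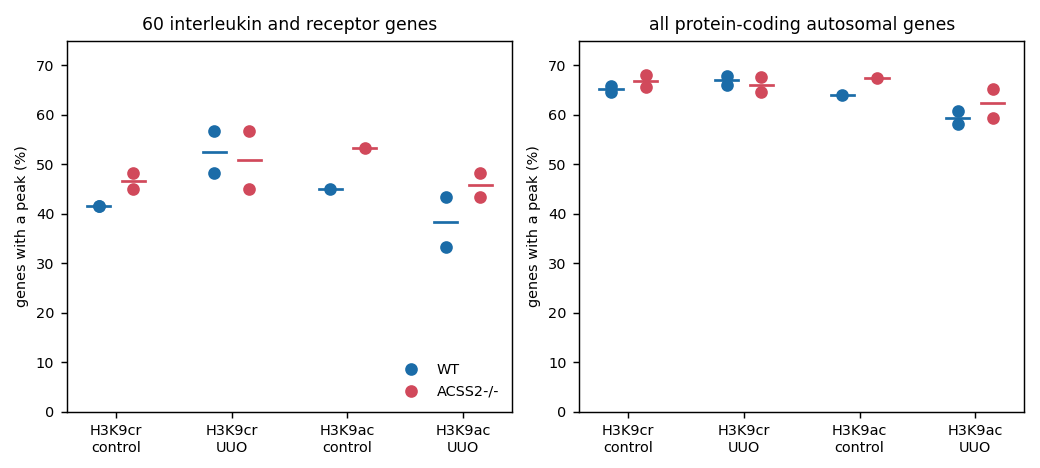
Share of genes with a peak (vertical axis, %) in each library (points, WT blue and ACSS2-/- red, bars for group means), for the 60 members on the left and all protein-coding autosomal genes on the right. Members lie between 33.3% and 56.7%, below the 58.1% to 68.1% of all genes in every group.

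H3K9cr was present in all 4 UUO and none of the 4 control libraries at 4 members, Il10ra, Il21r, Il2rb and Il4i1, 6.67% of the 60. The same rule called 0.445% of all coding genes. All 4 are best known from leukocytes. Il10ra encodes the ligand-binding chain of the receptor for IL-10, a cytokine that restrains macrophages, Il21r the receptor of IL-21, Il2rb the chain that receptors for IL-2 and IL-15 share, and Il4i1 an enzyme of myeloid and B cells that oxidises aromatic amino acids. No member had H3K9cr in all control and no UUO libraries, a rule that called 0.295% of all coding genes. With the 15988 longest peaks of each list alone, Il2rb and Il4i1 were no longer called and Il11 and Il27ra were, and with the longest 50% of its peaks Il4i1 was no longer called and Il11 was.

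At Il10ra (chr9:45253837-45269149), H3K9cr covered 6945 and 5072 bp in WT UUO, 5668 and 1921 bp in ACSS2-/- UUO and 0 bp in the 4 control libraries. The mean of the UUO libraries was 4901.5 ± 2135 bp (SD, n = 4). The longest peak lay across the higher-coordinate end of the gene in 3 of the 4, chr9:45265909-45269722 and chr9:45265775-45269547 in WT and chr9:45266373-45270383 in ACSS2-/- replicate 1. In ACSS2-/- replicate 2 this stretch held a pair of shorter peaks of 825 and 1096 bp. H3K9ac covered 1842 and 3959 bp in WT UUO, 2842 and 4519 bp in ACSS2-/- UUO, 504 bp in ACSS2-/- control and 0 bp in WT control, and its peaks lay at the same end. All UUO libraries of either mark were above all control libraries.

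At Il21r (chr7:125603252-125634397), H3K9cr covered 6194 and 5310 bp in WT UUO, 5132 and 3871 bp in ACSS2-/- UUO and 0 bp in every control library, a UUO mean of 5126.75 ± 957 bp (SD, n = 4). A peak crossed the promoter printed above in all 4 UUO libraries, chr7:125602784-125605429 in WT replicate 1 for example, with lengths of 2646, 3528, 2719 and 1475 bp. A further peak lay about 1 to 3 kb before the gene in each. Of the 44 members with a promoter in the table, which leaves out Il10ra and Il2rb, Il21r alone carried H3K9cr at the promoter in all UUO and no control libraries. H3K9ac covered 558 and 3250 bp in WT UUO, 1002 and 4706 bp in ACSS2-/- UUO, 399 bp in WT control and 0 bp in ACSS2-/- control, and reached the promoter in 2 of the 4 UUO libraries. The neighbouring gene Il4ra, by contrast, had both marks at its promoter throughout.

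At Il2rb (chr15:78479256-78511621), H3K9cr covered 2143 and 3291 bp in WT UUO, 1556 and 2196 bp in ACSS2-/- UUO and 0 bp in the control libraries, a UUO mean of 2296.5 ± 724 bp (SD, n = 4). Peaks lay at the same places in all 4, inside the gene at chr15:78493734-78495155 and near its higher-coordinate end at chr15:78510069-78510789, as called in WT replicate 1. H3K9ac did not separate the groups here, with 0 and 2461 bp in WT UUO, 694 and 1146 bp in ACSS2-/- UUO, 61 bp in WT control and 1319 bp in ACSS2-/- control.

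At Il4i1 (chr7:44836288-44840809), H3K9cr covered 1626 and 866 bp in WT UUO, 879 and 855 bp in ACSS2-/- UUO and 0 bp in the control libraries, a UUO mean of 1056.5 ± 380 bp (SD, n = 4). The start site was covered in 3 of the 4, and the remaining library, ACSS2-/- replicate 2, had a single peak at chr7:44839480-44840334, over 3 kb into the gene. H3K9ac covered more in ACSS2-/- control (1627 bp) than in any UUO library (0 to 860 bp). Il4i1 shares nearly all of its length with Il4i1b, and peaks there cannot be assigned to either gene.

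**Figure D4:**
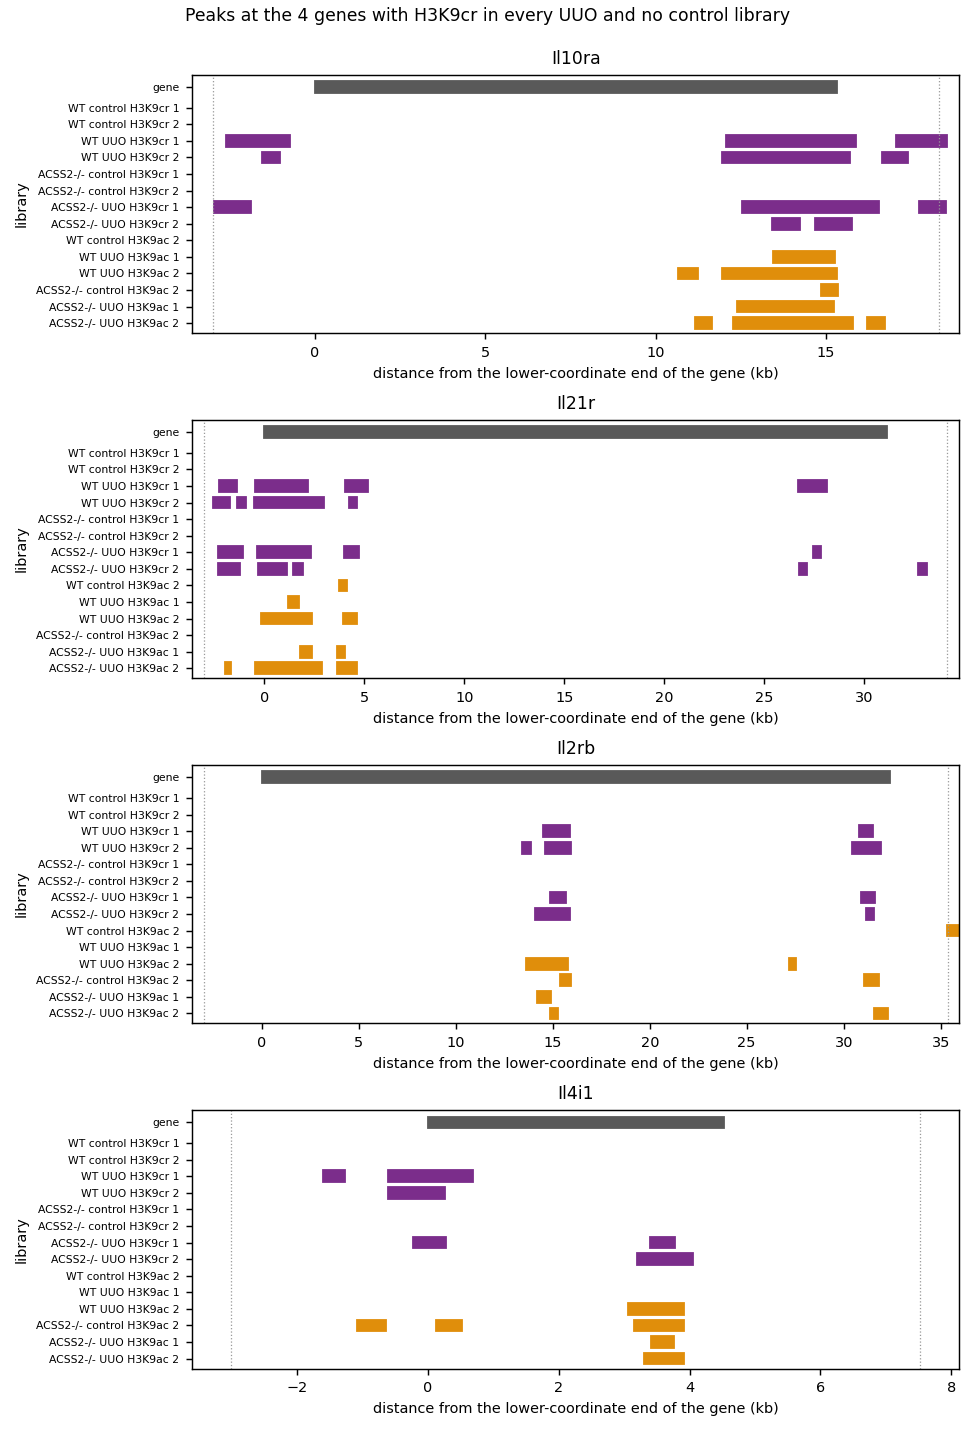
Peaks (boxes, H3K9cr purple and H3K9ac orange) in each library (rows) along Il10ra, Il21r, Il2rb and Il4i1, by distance in kb from the lower-coordinate end of the gene (grey bar), with dotted lines 3 kb outside the gene. The 4 H3K9cr control rows are empty in all panels, and the UUO peaks recur at the same places between libraries, apart from Il4i1 in ACSS2-/- UUO replicate 2.

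Taken by genotype, the rule called 6 members in WT, these 4 with Il20rb and Il12rb2 (10.0% against 2.09% of all coding genes), and the same 4 in ACSS2-/- (6.67% against 0.779%). Il20rb, a chain of receptors for IL-19, IL-20 and IL-24, was covered over 3595 and 2783 bp in WT UUO, 1615 and 0 bp in ACSS2-/- UUO, 0 and 0 bp in WT control and 91 and 0 bp in ACSS2-/- control. Il12rb2, the signalling chain of the IL-12 receptor, was covered over 507 and 985 bp in WT UUO, 401 and 0 bp in ACSS2-/- UUO and 0 bp in all controls. Both were thus in 3 of 4 UUO libraries, missing in the ACSS2-/- library with the fewest H3K9cr peaks (27530). At Il12rb2 these peaks were not at the same place. Both WT peaks reached the promoter (chr6:67375644-67376150 in replicate 1), and the ACSS2-/- peak lay elsewhere inside the gene (chr6:67317155-67317555). In the other direction, WT control libraries alone carried Il12b and Il31ra (against 0.794% of all coding genes), and ACSS2-/- control libraries alone Il22ra1 (against 1.22%). Il12b, the subunit that IL-12 and IL-23 share, was covered over 1079 and 342 bp in WT control, 1548 and 0 bp in ACSS2-/- control, 0 and 0 bp in WT UUO and 0 and 311 bp in ACSS2-/- UUO. Il31ra, the chain of the IL-31 receptor that binds the ligand, was covered over 500 and 345 bp in WT control, 0 and 392 bp in ACSS2-/- control, 0 and 0 bp in WT UUO and 488 and 0 bp in ACSS2-/- UUO. No H3K9cr peak at Il31ra recurred at the same place in another library. Those of WT control lay at chr13:112580831-112581330 and chr13:112529868-112530212. Il22ra1, the ligand-binding chain of the IL-22 receptor on epithelia, was covered over 899 and 998 bp in ACSS2-/- control and 0 bp in the other H3K9cr libraries.

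Il6, a cytokine of inflammation, carried H3K9cr in 1 of 2 UUO libraries of each genotype, 569 bp in WT and 825 bp in ACSS2-/-, and in no control. Its H3K9ac was limited to 441 bp in 1 ACSS2-/- UUO library. Il10, the ligand of Il10ra, had peaks in 1 of the 14 libraries, H3K9cr of WT UUO replicate 1, with lengths of 338 and 458 bp. For both ligands a difference was not detectable with these lists.

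Covered length was compared by an exact two-sided permutation test per gene, in which 4 against 4 libraries cannot give a p under 0.0286. After Benjamini-Hochberg adjustment over 15186 coding genes with a peak in at least 1 of the 8 libraries, the smallest adjusted p was 0.149 and no gene passed 0.05, while 2920 genes, 19.2%, had an unadjusted p under 0.05. The median difference between UUO and control was -227.875 bp over these genes and -71.875 bp over 40 members among them. Without overlap of the groups, 7 members were higher in UUO (11.7% of 60, against 1.8% of all coding genes) and 3 were lower (5.0%, against 12.3%). The p of each was 0.0286 and the adjusted p 0.149. Within the libraries with and without peaks on chromosome Y taken separately, 13 and 13 members were higher and 4 and 10 lower, and without ACSS2-/- UUO replicate 2, 12 were higher. Fewer libraries separate more easily, so that such counts can only stay or rise. The only H3K9cr control without Y-linked peaks was WT replicate 1. Shares of all coding genes were not computed for these subsets. Il10ra, Il21r, Il2rb and Il4i1 keep H3K9cr in UUO alone in any subset of the 8 libraries, because the rule that called them used all of these. The split and the removal of UUO libraries whose mouse number differed from the label therefore do not check these 4 genes.

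Besides the 4 above, Il16, Il11 and Il27ra were higher in UUO. Il16, a chemoattractant of CD4+ cells, was covered over 7661 and 3832 bp in WT UUO, 5787 and 2876 bp in ACSS2-/- UUO, 351 and 1683 bp in WT control and 2404 and 1446 bp in ACSS2-/- control. The ratio of its group means was 3.43, from 1471 ± 851 to 5039 ± 2127 bp (SD, n = 4). Of its annotated promoters, the one with its window at chr7:83655446-83655745 was covered in all 8 libraries, the others in none, and all UUO libraries had further peaks beside it that the controls lacked. Il11, a cytokine of the gp130 group known from fibrosis, was covered over 1333 and 1347 bp in WT UUO, 1072 and 1053 bp in ACSS2-/- UUO, 456 and 0 bp in WT control and 903 and 878 bp in ACSS2-/- control, a ratio of means of 2.15. The window of Il11 holds the start sites of Fam71e2 and Tmem190, and no peak reached a promoter of Il11 in any library. Il27ra, the specific chain of the IL-27 receptor, was covered over 1372, 1214, 1036 and 783 bp in UUO and 359, 577, 670 and 626 bp in control, a ratio of 1.97, in a single peak at its higher-coordinate end in every library. Its window holds the start site of Rln3.

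Il17rd, Il2ra and Il11ra1 were lower in UUO. Il17rd, a receptor chain that also restrains FGF signalling, was covered over 3462 and 4380 bp in WT control, 9247 and 6334 bp in ACSS2-/- control, 2284 and 1774 bp in WT UUO and 2210 and 1836 bp in ACSS2-/- UUO, a ratio of 0.346. The peak next to its start site was present in all 8 libraries, and peaks further into the gene were fewer in UUO. Il2ra encodes the alpha chain of the IL-2 receptor. It was covered over 2160 and 810 bp in WT control and 2348 and 1654 bp in ACSS2-/- control. In UUO it was covered over 355, 411, 348 and 358 bp, a ratio of 0.211. Its peaks in control lay about 21 kb into the gene or past its far end, none reached the promoter printed above, and H3K9ac was found in 1 of 6 libraries (939 bp, ACSS2-/- control). Il11ra1, the IL-11 receptor, was covered over 4588 and 4572 bp in WT control, 5051 and 4438 bp in ACSS2-/- control, 4046 and 3121 bp in WT UUO and 2867 and 2969 bp in ACSS2-/- UUO, a ratio of 0.697.

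**Figure D5:**
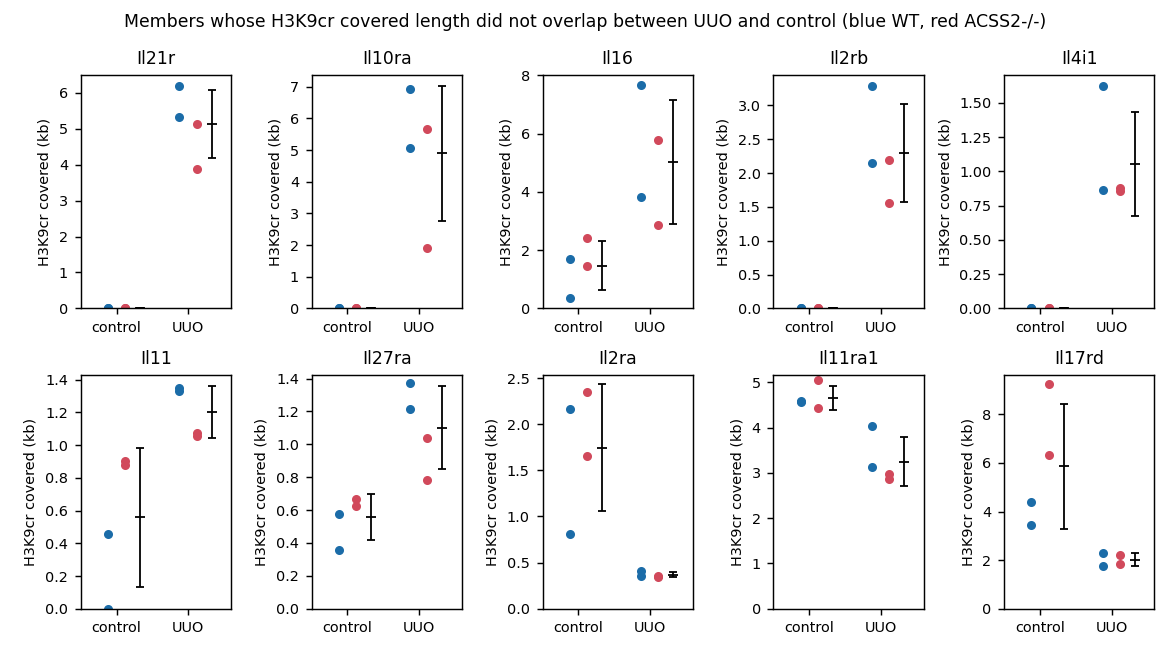
H3K9cr covered length (vertical axis, kb, a separate scale per gene) in each control and UUO library (points, WT blue and ACSS2-/- red), with mean and SD over the 4 libraries beside them, for the 10 members without overlap of the groups. The 4 members at 0 in control are Il21r, Il10ra, Il2rb and Il4i1, and Il2ra, Il11ra1 and Il17rd are lower in UUO.

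Other members with long coverage overlapped between the groups. Il4ra, a chain of the receptors for IL-4 and IL-13, was covered over 9336 and 9716 bp in WT UUO, 9768 and 5048 bp in ACSS2-/- UUO, 4797 and 4204 bp in WT control and 6726 and 4088 bp in ACSS2-/- control (exact permutation p = 0.0571, adjusted p = 0.215). Il34 had the longest coverage in bases, 7210 to 16714 bp in control and 10556 to 16019 bp in UUO (exact permutation p = 0.314). Il12rb1, a chain shared by the receptors for IL-12 and IL-23, reached 4483 bp in WT UUO replicate 1, with 453 to 1166 bp in the other UUO and 155 to 560 bp in the control libraries (exact permutation p = 0.0571, adjusted p = 0.215).

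For H3K9ac, no member was present in all 4 UUO and neither control library (against 0.0871% of all coding genes), and Il17d and Il27 were present in both control and no UUO library (3.33% against 1.05%). Il17d, a ligand of the IL-17 family, was covered over 1007 bp in WT control and 1728 bp in ACSS2-/- control, and Il27, a subunit of the cytokine IL-27, over 775 and 1807 bp. By covered length, 3 members were higher in UUO without overlap (5.0% against 0.295%), Il16, Il21r and Il10ra, the same direction as in H3K9cr. Il16 had 1987 to 3155 bp of H3K9ac in UUO and 937 and 1186 bp in control. Lower without overlap were 9 members (15% against 33.5%), Il17rd, Il17rb, Il17d, Il7, Il11ra1, Il17re, Il17rc, Il27 and Il15. With 1 library per control group, no spread within control of a genotype is known for H3K9ac.

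Coverage of several cell type markers moved with UUO in the same libraries. Of 7 macrophage markers, 4 (C1qa, C1qb, C1qc and Tyrobp) had H3K9cr in all UUO and no control libraries, a rule that called 0.445% of all coding genes. The 7 summed to 12.6 to 33 kb in UUO against 2.08 to 7.59 kb in control. Adgre1 was at 0 in control and in 2 of 4 UUO libraries. Csf1r (1760 to 3356 bp in UUO, 389 to 4809 bp in control) and Cd68 (1755 to 3621 against 1687 to 2811 bp) overlapped. Of 7 T cell markers, Cd3d had this pattern, and Cd3e, Cd8a and Cd2 were at 0 in control. The 7 summed to 14.2 and 18.4 kb in WT UUO. In ACSS2-/- UUO they summed to 5.24 and 4.17 kb, against 3.27 to 5.81 kb in control. Cd3e was at 0 in both ACSS2-/- UUO libraries, and Cd8a had H3K9cr in WT UUO replicate 2 alone. Cd3g, Lck and Cd4 overlapped between UUO and control, Cd4 with 552 to 1217 bp in UUO and 926 to 2136 bp in control. Of 3 neutrophil markers none had it, S100a8 and S100a9 were at 0 in all 8 libraries, and the sums overlapped (0.782 to 2.66 against 1.04 to 1.3 kb). Of 6 proximal tubule markers, 4 were lower in UUO without overlap (against 12.3% of all coding genes), and the 5 distal nephron markers summed to 9.57 to 13.2 kb in UUO against 21.8 to 37.0 kb. Of 3 endothelial markers, Kdr and Cdh5 were lower in UUO and Pecam1 overlapped (2059 to 7400 bp in UUO, 2350 to 6255 bp in control), with sums of 2.96 to 9.61 against 5.52 to 14.3 kb, and 3 stromal markers summed to 0.308 to 8.16 against 1.42 to 3.46 kb. In whole kidney, more cells of a type and more of the mark per cell cannot be told apart. The part of these shifts in the results at Il10ra, Il21r, Il2rb and Il4i1 was not tested.

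Of 28 further genes of interleukin signalling (JAK kinases, STAT factors, SOCS inhibitors, shared receptor chains and adaptors), 3 had H3K9cr in all UUO and no control libraries (against 0.445% of all coding genes). They were Stat4, the STAT factor of the IL-12 receptor, with 3096, 2072, 1149 and 484 bp in UUO, and Csf2rb and Csf2rb2, which encode beta chains of the receptors for IL-3, IL-5 and GM-CSF. None had the converse (against 0.295%). Socs3, an inhibitor of gp130 signalling that STAT3 induces, was covered over 4930 to 7694 bp in UUO and 3235 to 4327 bp in control without overlap, and Stat5b, a STAT factor of several receptors of the common gamma chain group, over 6038 to 8188 bp against 10640 to 19725 bp. By covered length 4 of the 28 were thus higher (against 1.8% of all coding genes) and 1 lower (against 12.3%) in UUO. Stat4 acts downstream of Il12rb2, whose H3K9cr was in 3 of 4 UUO libraries, at the promoter only in WT.

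The second comparison, ACSS2-/- against WT, asked whether the marks at these genes depend on the crotonyl-CoA-producing enzyme. In UUO no member had H3K9cr in both libraries of a genotype and neither of the other, rules that called 0.329% of all coding genes in ACSS2-/- and 0.692% in WT. With 2 libraries against 2 an exact test cannot give a p under 0.333, so that covered lengths are given as a description. In UUO, 14 members were lower in both ACSS2-/- than in both WT libraries (23.3% against 17.5% of all coding genes) and 1, Il9r, was higher (1.67% against 5.29%). The window of Il9r holds the start site of Snrnp25. Peaks of either mark at Il9r lay at that end of the window, and none reached the promoter of Il9r. The peaks of a library covered 29.4 and 39.7 Mb in ACSS2-/- UUO and 35 and 44.6 Mb in WT UUO over the genome.

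The 14 members included Il21r, with 5132 and 3871 bp in ACSS2-/- against 6194 and 5310 bp in WT, and Il15, with 2642 and 1636 bp against 4733 and 3644 bp. Il20rb had 1615 and 0 bp against 3595 and 2783 bp, and Il4i1b 2738 and 2663 bp against 5099 and 3804 bp. The others were Il6st, Il3ra, Il7, Il6ra, Il11ra1, Il12rb2, Il17re, Il17rc, Il11 and Il27ra. Il10ra, Il2rb and Il4i1 overlapped between genotypes, as with 879 and 855 bp of Il4i1 in ACSS2-/- and 1626 and 866 bp in WT.

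In control kidneys the order was the other way. Il9, Il17d and Il22ra1 had H3K9cr in both ACSS2-/- and no WT library (5.0% against 0.697% of all coding genes), and no member had the converse (against 0.111%). Il9, a cytokine of T cells and mast cells, was covered over 1429 and 1233 bp in ACSS2-/- control, and Il17d over 2804 and 432 bp. The Il9 peaks lay outside the gene, past its lower-coordinate end (chr13:56476644-56478072 in replicate 1), and none reached its promoter. At Il17d H3K9cr reached the promoter in replicate 1 alone. Both replicates shared a place inside Il17d, where the H3K9ac peak of WT control (1007 bp) also lay. At Il22ra1 both peaks reached the promoter. By covered length 16 members were higher in both ACSS2-/- libraries (26.7% against 30.8% of all coding genes) and none was lower (against 2.58%). The largest difference of means was at Il34, 13472.5 bp in ACSS2-/- against 7884.5 bp in WT, and the peaks of these libraries covered 51.4 and 64.6 Mb of the genome in ACSS2-/- and 41.7 and 44.8 Mb in WT. The share of members was below that of all genes.

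For H3K9ac in UUO, Il3ra, the specific chain of the IL-3 receptor, was present in both ACSS2-/- libraries (400 and 601 bp) and neither WT library, 1.67% of members against 1.02% of all coding genes. No member had the converse (against 0.0629%). By covered length 4 members were higher in ACSS2-/- (Il9r, Il3ra, Il17rb and Il15ra, 6.67% against 20.2%) and none was lower (against 1.5%). Il15ra, the IL-15 binding chain, had 2117 and 1428 bp of H3K9ac in ACSS2-/- UUO and 1401 and 1403 bp in WT UUO.

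The third comparison set the marks side by side in UUO. Il2ra had H3K9cr in all 4 and H3K9ac in none of the 4 UUO libraries (1.67% against 0.668% of all coding genes), and no member had the converse (against 0.00968%). By covered length 6 members were higher for H3K9cr without overlap (10.0% against 9.7%), Il3ra, Il17rd, Il2ra, Il7, Il17rc and Il34, and none was higher for H3K9ac (against 1.05%). Il34 had the largest gap, 10556 to 16019 bp for H3K9cr and 581 to 6080 bp for H3K9ac. The H3K9ac lists of UUO kidneys were shorter (15988 to 24571 peaks against 27530 to 36734), so that mark and yield cannot be told apart in these lengths.

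At the promoters themselves, H3K9cr reached 11 to 15 of the 44 members per library, 25% to 34.1%, against 53.5% to 58.1% of all coding promoters. H3K9ac reached 8 to 12, 18.2% to 27.3%, against 43.9% to 59.3%. Il6st, Il17rb, Il15ra, Il11ra1, Il4i1b and Il4ra had both marks at the promoter in all 14 libraries. Il12rb2 had H3K9cr at its promoter in both WT UUO libraries and in no other. Several members with peaks in the window, Il2ra among them, had no peak at the promoter in any library.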

How the data were processed

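ChIP-seq peaks of H3K9cr (8 libraries) and H3K9ac (6 libraries) from mouse kidney were used. The authors aligned paired-end reads with Bowtie2, removed organelle, poorly mapped and duplicate reads, and called peaks per library with MACS2 at q < 0.05; the submitters' processing notes name mm10 and ChIPseeker. The deposited lists hold start and end positions of peaks only, so the read-count test of the study could not be run, and depth is unknown. Tool versions are not given in the sources used here.

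Groups came from the sample titles. Genes, windows (3 kb either side) and promoters came from RefSeq GRCm38.p6, without strand outside the promoter table. Presence needed 1 bp of overlap. Members and gene lists were chosen with earlier results of these data known. A member was named if called in a comparison of presence, if marked in all libraries or none, or among the 10 with the largest separated difference of covered length, with Il6 added. Group differences were counted against all protein-coding autosomal genes, and covered lengths were tested by exact permutation with Benjamini-Hochberg adjustment. As a check of the overlap code, the peaks at randomly picked genes among 20665 were removed from 1 list, and 100% of these genes then scored no peak. This outcome was set by the removal and does not measure the power to find a UUO difference. In a comparison of overlaps, 0 values differed from bedtools 2.31.1. Scripts ran under Python 3.11.15 with pandas 2.3.3, numpy 2.4.6 and SciPy 1.17.1, and plots were drawn with matplotlib 3.10.9. Alternatives were a 1 kb window, gene ends alone, a 50% overlap, equal numbers of longest peaks (15988), the longest 50% of peaks, 1 exception allowed, each library left out and a replicate block. Replicate numbers did not pair the samples. Replicate 1 of H3K9ac in control kidneys, RNA-seq and input were not analysed here. The marker list of B cells is not reported here.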

Additional observations from a re-analysis of the deposited data

Results flagged for a closer look

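Of 47 groups of 4 libraries of named members that varied in covered length, 13 had a highest or lowest library farther from the others than Dixon's 95% limit for 4 samples. Chance flags about 1 group in 20, and groups in which 3 libraries are at 0 are flagged by any single peak. In ACSS2-/- UUO replicate 2 the H3K9cr values were 311 bp at Il12b, the only UUO library with a peak there, and 669 bp at Il3ra, below the others. In ACSS2-/- UUO replicate 1 Il31ra had 488 bp of H3K9cr and the other UUO libraries 0. In ACSS2-/- control replicate 1, H3K9cr covered 2804 bp of Il17d and 91 bp of Il20rb. In WT UUO, H3K9cr was farthest from the other libraries at Il4i1 in replicate 1 (1626 bp) and at Il2ra in replicate 2 (411 bp). For H3K9ac in ACSS2-/- UUO replicate 2, the highest library stood apart at Il17rd (1498 bp), Il20rb (104 bp), Il6 (441 bp) and Il9 (301 bp). In WT UUO, H3K9ac was lowest at Il11ra1 in replicate 2 (2529 bp) and at Il12rb2 in replicate 1 (0 bp).

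At Il17rc and Il4i1b, H3K9cr in UUO lay on opposite sides of control in the genotypes, for each library. The difference of UUO and control means was 717 bp in WT and -2631.5 bp in ACSS2-/- at Il17rc, and 2305.5 bp in WT and -248.5 bp in ACSS2-/- at Il4i1b. The difference between genotypes was not tested.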

How the results depend on the processing

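The lists carry no depth, so that a missing peak can be a peak under the threshold. Members with H3K9cr in UUO alone, 4 as reported, were 4 to 5 when each library was left out, a change that cannot lower such a count. When promoters alone were scored, an alternative added after seeing the data that could not score Il10ra and Il2rb, 1 was called (Il21r). The count of members with H3K9cr in control alone was 1 in libraries without Y-linked peaks and 0 to 0 with libraries left out. Members with H3K9ac in UUO alone, 0 as reported, were 1 with gene ends alone, 2 with equal numbers of longest peaks, 1 with the longest 50% of peaks, 2 with 1 exception allowed, and 0 to 1 with libraries left out. Those with H3K9ac in control alone were 1 with a 1 kb window, with gene ends alone and with the longest 50% of peaks, and 2 to 6 with libraries left out, 6 without the WT control library.

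Between genotypes in UUO, H3K9cr in ACSS2-/- alone was at 1 member with 1 exception allowed and 0 to 2 with libraries left out, and in WT alone at 1 with gene ends alone, with equal numbers of longest peaks and with the longest 50%, at 3 with 1 exception allowed (Il12rb2, Il27 and Il20rb, the same as without ACSS2-/- UUO replicate 1), and 0 to 3 with libraries left out. H3K9ac in ACSS2-/- UUO alone was at 6 members with 1 exception allowed and 1 to 6 with libraries left out (6 without WT UUO replicate 2, 4 without ACSS2-/- UUO replicate 1), and in WT alone at 0 to 1. In control, H3K9cr in ACSS2-/- alone was at 1 member with equal numbers of longest peaks and 3 to 5 with libraries left out (5 without ACSS2-/- control replicate 2), and in WT alone at 2 with 1 exception allowed and 0 to 1. Il2ra, with H3K9cr and no H3K9ac in UUO, was not called with gene ends alone, equal numbers of longest peaks or the longest 50% (0 in each), and the count was 1 to 2 with libraries left out.

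Members higher in UUO by covered length, 7 as reported, were 4 with the longest 50% of peaks, 7 to 12 with libraries left out (12 without ACSS2-/- UUO replicate 2), and 13 within libraries with and 13 within libraries without Y-linked peaks. Those lower, 3 as reported, were 10 within libraries without Y-linked peaks, 7 with the UUO libraries whose mouse numbers match alone, and 3 to 5 with libraries left out (5 without WT UUO replicate 1 or ACSS2-/- control replicate 2). Taking fewer libraries can only keep or raise both counts. The replicate block gave 9 higher and 4 lower. Deviations of same-numbered libraries correlated at -0.119 between WT control and WT UUO, -0.208 and -0.186 between WT control and the ACSS2-/- groups, 0.369 between the ACSS2-/- groups, and 0.459 and 0.504 between WT UUO and ACSS2-/- control and UUO. Not every pair was positive and the labels name no shared animal, so the numbers were not taken to pair the libraries. Crossing the numbers in WT gave 9 higher and 7 lower.

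The mean number of members with H3K9cr in WT control was 22.5 with a 1 kb window, 22 with gene ends alone, 24 with a 50% overlap, 15 with equal numbers of longest peaks, 16.5 with the longest 50%, and 25 to 25 with libraries left out. For ACSS2-/- control these were 25.5, 25, 26.5, 17.5 and 20.5, and 27 to 29. With equal numbers of longest peaks and with the longest 50%, WT UUO had 25 and 24.5 and ACSS2-/- UUO 22.5 and 23. For H3K9ac the longest 50% gave 18 in WT control, 15.5 in WT UUO, 18 in ACSS2-/- control and 16.5 in ACSS2-/- UUO, equal numbers gave 18 in ACSS2-/- control and 25 in ACSS2-/- UUO, and gene ends alone gave 25 in ACSS2-/- UUO. The other 93 values stayed within 1.5 times the reported count, or within the spread between libraries for means, but not always with the same members. Lost were Il2rb and Il4i1 (H3K9cr in UUO alone) and Il16, Il4i1 and Il2rb (higher in UUO) with equal numbers of longest peaks, and Il4i1 (H3K9cr in UUO alone), Il3ra (H3K9ac in ACSS2-/- UUO alone) and Il17d and Il22ra1 (H3K9cr in ACSS2-/- control alone) with the longest 50%. Il2ra (lower in UUO) was lost with both and with a 1 kb window, Il9 with a 1 kb window, and Il11, Il16, Il17rd and Il17d with gene ends alone.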

Other observations

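The X-linked genes that match by name carried peaks as follows. Il2rg, the common gamma chain itself, had H3K9cr over 1431 and 1053 bp in WT UUO, 362 and 0 bp in ACSS2-/- UUO, 691 and 0 bp in WT control and 0 bp in both ACSS2-/- controls. Its H3K9ac was limited to 655 bp in WT UUO replicate 2 and 494 bp in ACSS2-/- UUO replicate 2. Il13ra1, a chain of the IL-13 receptor, had both marks in all 14 libraries, with 1114 to 1960 bp covered. Il13ra2, a decoy receptor for IL-13, had no peak in any library.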
